A study of Homo sapiens with 12 samples.

Results

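TMEM154, TMEM98, SRGN, GPSM1 and TNFRSF4 are 5 of the 12505 genes measured in T-lineage (T-ALL) and B-cell precursor (BCP-ALL) acute lymphoblastic leukemia cell lines transduced with CREB shRNAs. They were chosen by their change on the shCREB arrays: in a ranking of all genes by the p-value of the difference in change between T-ALL and BCP-ALL lines, they hold the first 5 places. That difference is therefore given below as a description and without a test. All 5 genes passed the filter on dim probes, which asked for detection on at least 4 of 12 arrays.

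Jurkat and Molt4 are established T-ALL cell lines, and Nalm6 and RS4;11 are established BCP-ALL cell lines. Each line was transduced with a pLKO1-mCherry lentivirus carrying shCREB2, shCREB3 or a scrambled shRNA (shControl), and the stably transduced cells were expanded. For each line and vector, 1 Illumina BeadChip array read the total RNA. The replicate is thus the cell line, with 4 arrays per vector and 2 lines per lineage, and no line has a second culture with the same vector. All cells, controls included, carry a viral vector. Each array reads a bulk culture, so fewer cells that express a gene and less of its RNA per cell cannot be told apart.

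TMEM154 and TMEM98 are small membrane proteins. The role of TMEM154 is poorly defined in human cells, and in sheep its variants are linked to lentivirus infection, whereas mouse TMEM98 binds the membrane-bound transcription factor MYRF and hinders its cleavage. SRGN encodes serglycin, the proteoglycan core protein that packs enzymes and chemokines into the granules of blood cells. GPSM1, also called AGS3, binds inhibitory G protein alpha subunits in their GDP form, and those subunits restrain adenylyl cyclase, the enzyme that makes cyclic AMP. Cyclic AMP activates protein kinase A, which phosphorylates CREB, and phosphorylated CREB recruits the coactivators CBP and p300 at cyclic AMP response elements. TNFRSF4 is OX40, a costimulatory receptor of activated T cells that signals through TRAF proteins to NF-kB.

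Because CREB binds the cyclic AMP response element, the RefSeq promoters of the members were read for the full element TGACGTCA and for its core TGACG, which is CGTCA on the other strand. The table of promoters (GRCh38.p14, 250 bases before to 50 bases after each annotated start) held 1 promoter of TMEM154 and 3 of GPSM1. TMEM98, SRGN and TNFRSF4 were not matched. The TMEM154 promoter and the most upstream GPSM1 promoter are printed 5′ to 3′ with the annotated start base as the only capital letter. They are shown because CREB acts through this element, and neither the full element nor the core occurs in these windows on either strand. The TMEM154 window is chr4:152679948-152680247 on the minus strand and the GPSM1 window is chr9:136327289-136327588 on the plus strand.
TMEM154: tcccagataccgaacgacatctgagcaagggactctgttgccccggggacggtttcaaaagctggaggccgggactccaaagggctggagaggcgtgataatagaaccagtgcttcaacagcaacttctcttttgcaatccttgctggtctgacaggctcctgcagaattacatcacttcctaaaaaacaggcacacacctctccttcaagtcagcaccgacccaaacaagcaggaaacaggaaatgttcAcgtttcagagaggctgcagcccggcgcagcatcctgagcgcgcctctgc
GPSM1: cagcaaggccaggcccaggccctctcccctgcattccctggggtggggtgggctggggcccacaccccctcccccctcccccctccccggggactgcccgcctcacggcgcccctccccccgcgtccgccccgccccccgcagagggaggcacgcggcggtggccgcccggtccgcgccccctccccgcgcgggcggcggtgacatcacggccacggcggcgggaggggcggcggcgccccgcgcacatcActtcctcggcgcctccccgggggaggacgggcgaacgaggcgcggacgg
The other GPSM1 promoters, at chr9:136352786-136353085 and chr9:136354532-136354831, held neither as well. Of all 35116 promoters in the table, 1.85% held the full element and 24.6% held the core at least once, full elements included. G and C made up 54% of the TMEM154 window and 82% of the printed GPSM1 window.

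The brightest of 5 CREB1 probes did not show lower mRNA on the arrays labelled shCREB. Its change from shControl of the same line ranged from -0.29 to 0.46 on the log2 scale over 8 arrays, and was above 0 on 6 of them. The mean over the 4 lines was 0.18 ± 0.074 (SE, limma adjusted p = 0.203), where 1.10% of all 12505 genes passed the test in either direction. Changes of the next brightest CREB1 probe, also detected on all arrays, ranged from -0.14 to 0.44. The remaining CREB1 probes were at or near background. CREB protein, which the study followed by Western blot, is not analysed here, so the vectors are named by their labels and each direction given below rests on these labels. The 12 T cell markers were all detected on every T-ALL array and 1 to 6 of them on BCP-ALL arrays. Of 12 B cell markers, 4 or 5 were detected on T-ALL arrays and 10 or 11 on BCP-ALL arrays, among them CD22 and EBF1 on all 6 BCP-ALL arrays and on none of the T-ALL arrays. The lineage labels thus go with the counts of detected markers, but not with every marker. CD79A, CD79B and IGLL1 were also detected on all 6 T-ALL arrays and LCK on all 6 BCP-ALL arrays, while PAX5 was not detected in any line. Of 10 myeloid markers at most 2 were detected on a T-ALL array and at most 3 on a BCP-ALL array, and of 7 erythroid markers at most 1 and 2. Markers of the embryonic kidney cells used for packaging were at background on all arrays, except CDH2, which was detected on every T-ALL array. The part of these cells in the results was not tested. Between 30.3% and 33.1% of probes were detected per array, and the array of Nalm6 labelled shCREB2 lay farthest from its own line, with a correlation of 0.97 with the other arrays of Nalm6.

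Levels of the 5 genes split them by lineage and by detection. TMEM154, TMEM98 and TNFRSF4 were read above background mainly in Jurkat and Molt4, whereas SRGN and GPSM1 were detected on all 12 arrays, with GPSM1 brightest in the BCP-ALL lines and SRGN in 1 of them, RS4;11. All levels are normalized signals on the log2 scale, where the dimmest detected probes of an array lie between 7.06 and 7.12. A probe counts as detected at a detection p-value under 0.01 against the negative controls of the array, and a signal below that limit gives only an upper bound on the level.

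**Figure D1:**
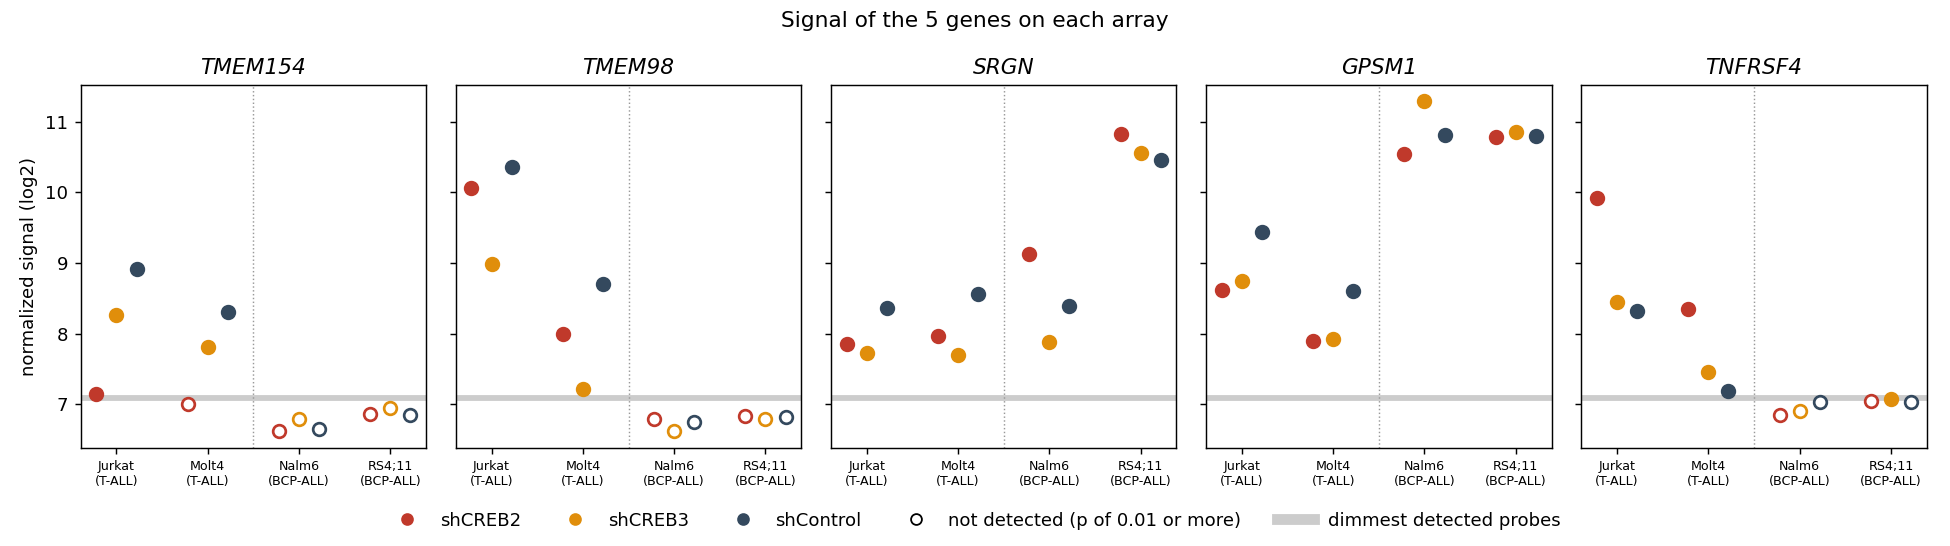
Normalized signal (log2) of the brightest probe of each gene on the 12 arrays, by cell line, with T-ALL lines to the left of BCP-ALL lines and the vectors as colours; open circles are arrays without detection and the grey band spans the dimmest detected probes of the arrays, 7.06 to 7.12. TMEM154 and TMEM98 have open circles on all 6 BCP-ALL arrays, whereas SRGN and GPSM1 have none.

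TMEM154 in Jurkat was at 7.15 with shCREB2 and 8.26 with shCREB3, against 8.92 with shControl. In Molt4 it was at 7.01 with shCREB2 and 7.82 with shCREB3, against 8.31 with shControl. Both T-ALL lines thus had the dimmest signal on the array labelled shCREB2, and in Molt4 that signal was not above background, with a detection p-value of 0.0403. Nalm6 was at 6.63 with shCREB2, 6.79 with shCREB3 and 6.65 with shControl, and the other BCP-ALL line was at 6.86, 6.95 and 6.85 in the same order. All 6 BCP-ALL signals were at background.

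TMEM98 in Jurkat was at 10.06 with shCREB2 and 8.99 with shCREB3, against 10.36 with shControl. In Molt4 it was at 7.999 with shCREB2 and 7.21 with shCREB3, against 8.70 with shControl. Here the array labelled shCREB3 was the dimmest in both T-ALL lines, the reverse of TMEM154. The 6 BCP-ALL arrays lay between 6.62 and 6.84 and none detected the gene.

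SRGN in Jurkat was at 7.85 with shCREB2 and 7.73 with shCREB3, against 8.36 with shControl. In Molt4 it was at 7.97 with shCREB2 and 7.70 with shCREB3, against 8.55 with shControl. Both shRNAs went with a lower serglycin signal in both T-ALL lines. In Nalm6 it was at 9.13 with shCREB2 and 7.88 with shCREB3, against 8.39 with shControl, so that the vectors lay on either side of the control. In RS4;11 it was at 10.83 with shCREB2 and 10.56 with shCREB3, against 10.46 with shControl.

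GPSM1 in Jurkat was at 8.62 with shCREB2 and 8.75 with shCREB3, against 9.43 with shControl. In Molt4 it was at 7.89 with shCREB2 and 7.93 with shCREB3, against 8.60 with shControl. Both shRNAs went with a lower GPSM1 signal in both T-ALL lines. In Nalm6 it was at 10.53 with shCREB2 and 11.28 with shCREB3, against 10.82 with shControl, again on either side of the control. In RS4;11 it was at 10.78 with shCREB2 and 10.85 with shCREB3, against 10.80 with shControl.

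TNFRSF4 is the member that was brighter on the arrays labelled shCREB. In Jurkat it was at 9.92 with shCREB2 and 8.45 with shCREB3, against 8.32 with shControl. In Molt4 it was at 8.36 with shCREB2 and 7.46 with shCREB3, against 7.18 with shControl. The array labelled shCREB2 was thus the brightest in both T-ALL lines and the array labelled shCREB3 lay near the control. Nalm6 was at 6.85 with shCREB2, 6.90 with shCREB3 and 7.03 with shControl, all without detection. RS4;11 was at 7.04 with shCREB2, 7.08 with shCREB3 and 7.03 with shControl, and only the array labelled shCREB3 passed detection, at a detection p-value of 0.00779.

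The mean level of a line is taken over its 3 arrays, so it includes the shCREB arrays and part of the change by which the genes were chosen. The T-ALL lines averaged 7.91 ± 0.28 for TMEM154, against 6.79 ± 0.14 in the BCP-ALL lines (SD over lines, n = 2 each). Counting the undetected BCP-ALL arrays at their limit, TMEM154 was 1.78-fold higher in T-ALL lines. That is no strict lower bound, since the undetected Molt4 array labelled shCREB2 entered at its measured 7.01. Such a fold takes the mean of the bright lines over the mean, per dim array, of the higher of its own signal and the dimmest detected probe. TMEM98 averaged 8.89 ± 1.30 in T-ALL lines and 6.77 ± 0.068 in BCP-ALL lines, at least 3.50-fold higher in T-ALL lines. TNFRSF4 averaged 8.28 ± 0.87 in T-ALL lines and 6.99 ± 0.088 in BCP-ALL lines, where 1 of 6 arrays detected it and the mean lies below the dimmest detected probes. These 3 genes passed the filter on dim probes through their T-ALL arrays, apart from that 1 array, so a higher level there was set by the filter and is given without a test. As measured, the difference was 2.12 for TMEM98 and 1.29 for TNFRSF4, and without Jurkat 1.20 and 0.68.

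GPSM1 and SRGN went the other way. GPSM1 averaged 8.54 ± 0.56 in T-ALL lines and 10.84 ± 0.050 in BCP-ALL lines, a difference of -2.31 (95% interval -3.15 to -1.46, limma adjusted p = 0.0943). Without the shControl array of Jurkat the GPSM1 difference was -2.43. The Jurkat level then rests on its shCREB arrays alone, whose fall chose the gene, so that value is given without a test. SRGN averaged 8.03 ± 0.065 in T-ALL lines and 9.54 ± 1.52 in BCP-ALL lines, a difference of -1.51 (interval -3.69 to 0.66, adjusted p = 0.407). Its BCP-ALL mean joins RS4;11 at 10.61 and Nalm6 at 8.47, so that the difference was -2.59 without Nalm6 and -0.44 without RS4;11. Each of these values leaves a single BCP-ALL line and is given without a test. With all arrays neither GPSM1 nor SRGN passed the test of the level in limma, where 1.05% of all genes did. Without adjustment GPSM1 had a p under 0.05, as had 2146 of 12505 genes. Both differences include the shCREB arrays, and so part of the change that chose the genes. On the shControl arrays alone GPSM1 was at 9.43 in Jurkat and 8.60 in Molt4, against 10.82 in Nalm6 and 10.80 in RS4;11. SRGN was there at 8.36 in Jurkat and 8.55 in Molt4, against 8.39 in Nalm6 and 10.46 in RS4;11.

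Ordered by line mean, TMEM154, TMEM98 and TNFRSF4 were each highest in Jurkat and then in Molt4. For TMEM154 and TNFRSF4 the 3 arrays of Jurkat overlapped those of Molt4, while for TMEM98 the gap of 1.83 between these lines had no overlap. For each of these genes the Molt4 arrays lay above all BCP-ALL arrays. SRGN was highest in RS4;11, clear of Nalm6 by 2.15, and the arrays of Nalm6, Molt4 and Jurkat overlapped. GPSM1 was highest in the BCP-ALL lines, whose arrays overlapped with a gap of 0.071 in the means, then in Jurkat and then in Molt4, without overlap at either step.

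The change of a gene is its log2 signal on a shCREB array minus that on the shControl array of the same line. In the T-ALL lines 4 members were lower on all 4 shCREB arrays and TNFRSF4 was higher on all 4. TMEM154 changed by -1.77 with shCREB2 and -0.66 with shCREB3 in Jurkat, and by -1.31 and -0.50 in Molt4. Its T-ALL mean of -1.06 ± 0.22 (SD, n = 2 lines), 0.480 times the control, stood against 0.054 ± 0.0045 in BCP-ALL lines. TMEM98 changed by -0.30 with shCREB2 and -1.38 with shCREB3 in Jurkat, and by -0.70 and -1.49 in Molt4. Its T-ALL mean was -0.97 ± 0.18, 0.512 times the control, against -0.022 ± 0.023 in BCP-ALL lines. As neither gene was detected in a BCP-ALL line, their BCP-ALL values are differences between background signals, and a fall in those lines could not have been seen.

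SRGN and GPSM1 were detected in every line, so their change could be read in both lineages. SRGN had a T-ALL mean of -0.64 ± 0.11, 0.640 times the control, against 0.18 ± 0.080 in BCP-ALL lines. Over the 4 shCREB arrays of each lineage the changes of SRGN ran from -0.85 to -0.51 in T-ALL and from -0.51 to 0.75 in BCP-ALL. The lowest BCP-ALL value, from Nalm6 with shCREB3, lay at the edge of the T-ALL range, and the highest came from the array of Nalm6 labelled shCREB2, which stands apart. Without that array the difference between lineages in SRGN was -0.51, against -0.82 with it. GPSM1 had a T-ALL mean of -0.72 ± 0.040, 0.608 times the control, against 0.053 ± 0.059 in BCP-ALL lines. Its changes ran from -0.81 to -0.67 in T-ALL and from -0.28 to 0.47 in BCP-ALL, where Nalm6 gave both ends and the other line stayed between -0.023 and 0.045.

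TNFRSF4 had a T-ALL mean of 0.80 ± 0.10, 1.74 times the control, against -0.062 ± 0.13 in BCP-ALL lines. The T-ALL mean joins unlike arrays, with 1.60 for shCREB2 and 0.14 for shCREB3 in Jurkat and 1.17 and 0.28 in Molt4. Without the array of Jurkat labelled shCREB2 the difference between lineages was 0.49, against 0.86 with it. The BCP-ALL values rest on background signals on all arrays but 1.

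**Figure D2:**
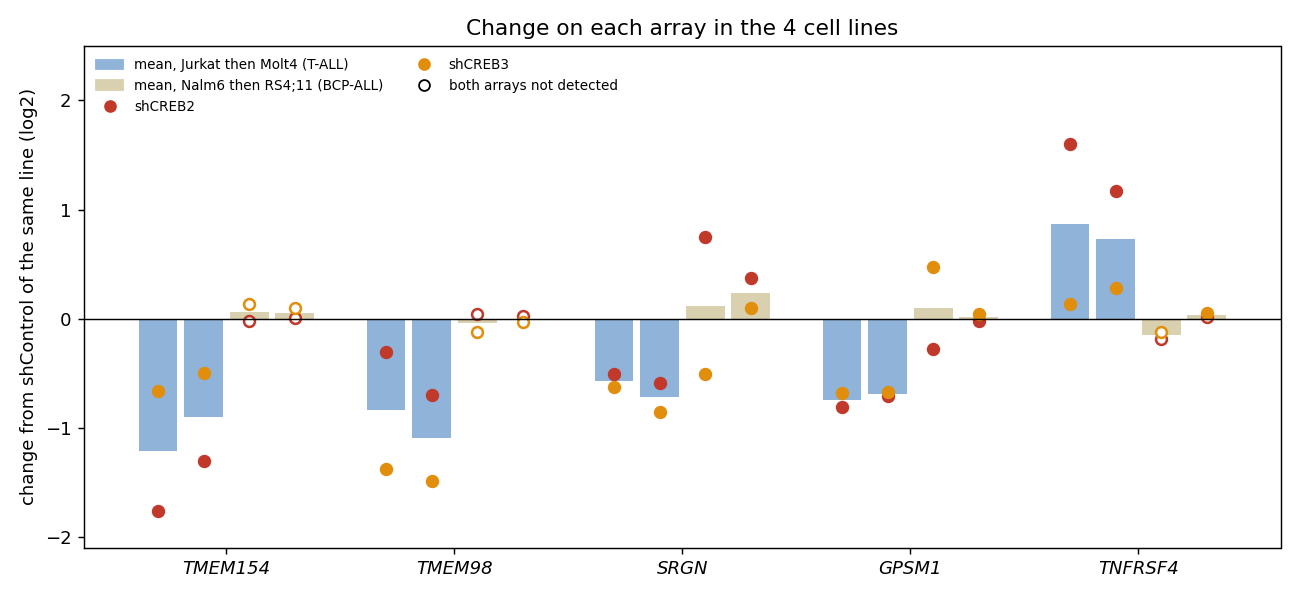
Change from shControl of the same line (log2) for the 5 genes; bars are the means of both shRNAs in Jurkat, Molt4, Nalm6 and RS4;11 from left to right and points are the single arrays, open where neither the shCREB nor the shControl array detected the gene. T-ALL bars run from -1.21 to 0.87, and BCP-ALL bars stay between -0.15 and 0.23.

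As a difference between lineages, T-ALL minus BCP-ALL, the change was -1.11 for TMEM154, -0.94 for TMEM98, -0.77 for GPSM1, -0.82 for SRGN and 0.86 for TNFRSF4. These are the values that chose the genes. Across all 12505 genes 0% passed the limma test of this difference after Benjamini-Hochberg adjustment, 541 had an unadjusted p under 0.05, and the methods' t-test gave 568 at that level and 0 after adjustment. The last member by rank is TNFRSF4. Just outside stood ANXA1, which encodes the phospholipid-binding protein annexin A1, with a difference of -0.86, and M160, a symbol of the array for which no newer name was matched, with 0.67. ANXA1 had a mean change of -0.95 in the T-ALL lines and -0.093 in the BCP-ALL lines, and was not detected in Nalm6. M160 was not detected in the T-ALL lines and had a mean change of -0.65 in the BCP-ALL lines.

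Each gene has at least 1 further probe on the array. The second SRGN probe, detected on all 12 arrays, changed by -0.38 with shCREB2 and -0.57 with shCREB3 in Jurkat and by -0.53 and -0.73 in Molt4. These are near the values of the first probe. In Nalm6 it changed by 0.76 and -0.57, also on either side of the control. The second TMEM154 probe was detected on all 6 T-ALL arrays and on none of the BCP-ALL arrays, and changed by -1.19 and -0.46 in Jurkat and by -0.83 and -0.55 in Molt4. The second TMEM98 probe was detected in Jurkat alone and changed there by 0.015 with shCREB2 and -0.18 with shCREB3, at signals of at most 7.28. Both further GPSM1 probes were at background on all 12 arrays, and the further TNFRSF4 probe was detected on the array of Jurkat labelled shCREB2 alone, at 7.18. Changes of TMEM98, GPSM1 and TNFRSF4 therefore rest on 1 probe each.

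**Figure D3:**
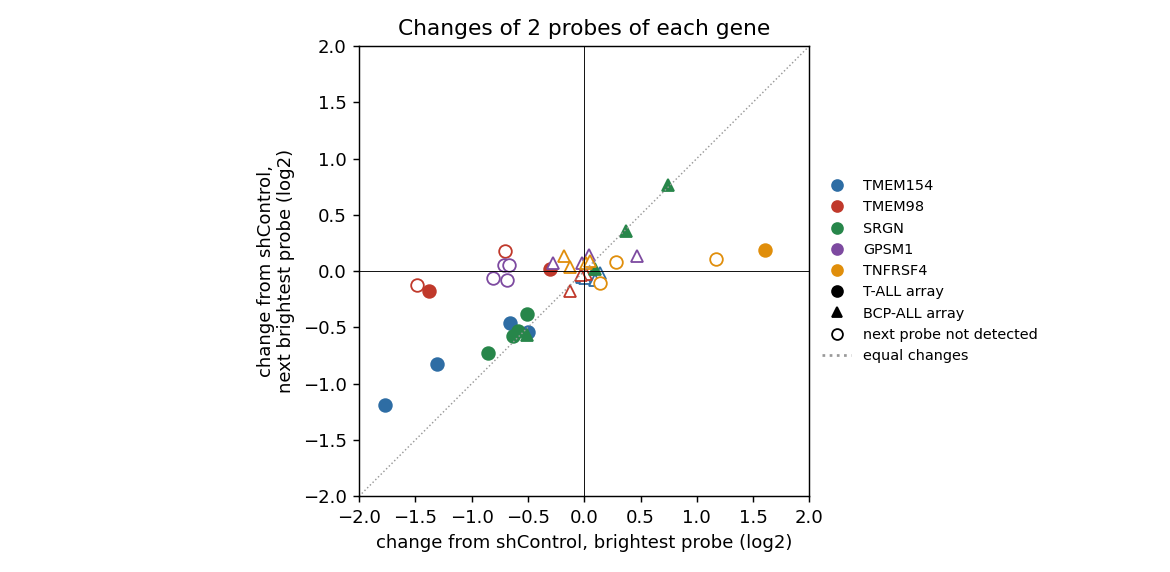
Change from shControl (log2) on the 8 shCREB arrays as read by the brightest probe (x axis) and the next brightest probe (y axis) of each gene, with circles for T-ALL arrays, triangles for BCP-ALL arrays, and open symbols where the next probe was not detected. SRGN and TMEM154 lie along or near the dotted line of equal changes, with TMEM154 reaching -1.77 and -1.19, whereas TNFRSF4 at 1.60 on the first probe had 0.19 on the next.

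The gene means that the authors deposited give the same signs in the T-ALL lines. On the log2 scale TMEM154 there changed by -1.50 with shCREB2 and -0.58 with shCREB3 in Jurkat, and TNFRSF4 by 1.31 and 0.069. The difference between lineages was -0.92 for TMEM154, -0.72 for TMEM98, -0.74 for SRGN, -0.52 for GPSM1 and 0.58 for TNFRSF4 in these values, which average all probes of a gene, the undetected ones included.

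Whether the 2 shRNAs differed within a line was not used to choose the genes. The T-ALL lines separated them in TMEM154, TMEM98 and TNFRSF4, and Nalm6 in SRGN and GPSM1. For TMEM154, shCREB3 minus shCREB2 was 1.11 in Jurkat and 0.81 in Molt4, against 0.16 and 0.085 in Nalm6 and RS4;11. For TMEM98 it was -1.08 and -0.79 in the T-ALL lines, against -0.17 and -0.052 in the BCP-ALL lines. For TNFRSF4 it was -1.47 and -0.89 in the T-ALL lines, against 0.058 and 0.033 in the BCP-ALL lines. The arrays labelled shCREB2 thus had the lower TMEM154 and the higher TNFRSF4 signal, and those labelled shCREB3 the lower TMEM98 signal. For SRGN the difference was -0.12 and -0.26 in the T-ALL lines, against -1.25 in Nalm6 and -0.27 in RS4;11. For GPSM1 it was 0.12 and 0.037 in the T-ALL lines, against 0.75 in Nalm6 and 0.068 in RS4;11.

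**Figure D4:**
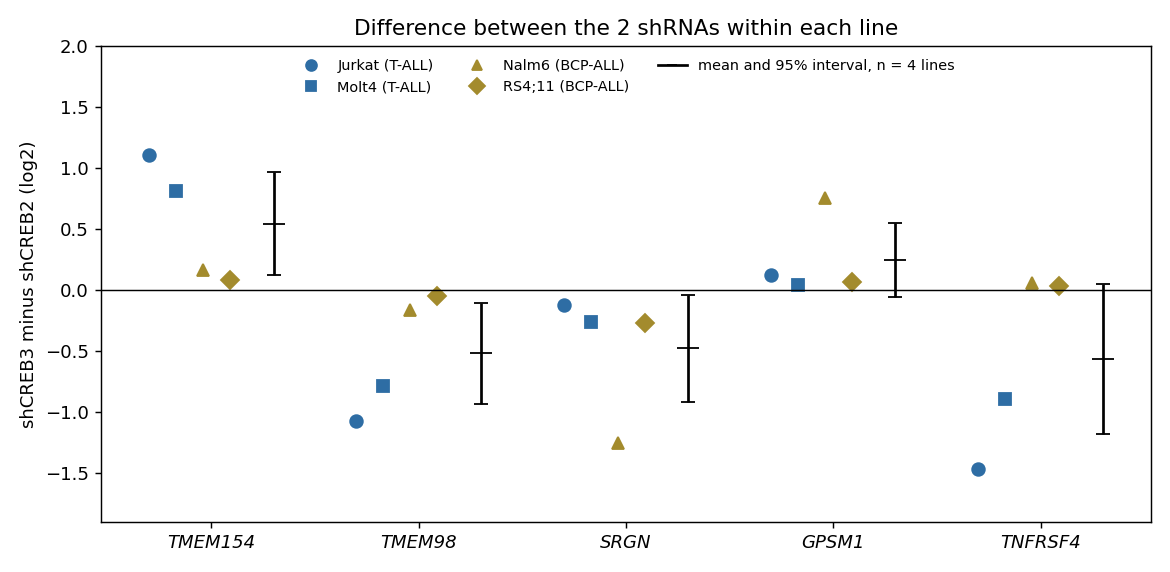
Signal with shCREB3 minus signal with shCREB2 (log2) in each line for the 5 genes, T-ALL lines in blue and BCP-ALL lines in ochre, with the mean over 4 lines and its 95% interval in black. Jurkat and Molt4 lie at 1.11 and 0.81 for TMEM154 and at -1.47 and -0.89 for TNFRSF4, while Nalm6 lies apart for SRGN at -1.25 and for GPSM1 at 0.75.

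Over the 4 lines the mean of shCREB3 minus shCREB2 was 0.54 for TMEM154 (95% interval 0.12 to 0.96, limma adjusted p = 0.125) and -0.52 for TMEM98 (interval -0.94 to -0.11, adjusted p = 0.131). It was -0.48 for SRGN (interval -0.92 to -0.039, adjusted p = 0.168), 0.24 for GPSM1 (interval -0.057 to 0.55, adjusted p = 0.275) and -0.57 for TNFRSF4 (interval -1.18 to 0.045, adjusted p = 0.223). For TMEM154, TMEM98 and TNFRSF4 these means include BCP-ALL lines at or near background. Without Jurkat the mean was 0.35 for TMEM154, -0.34 for TMEM98 and -0.27 for TNFRSF4, and without Nalm6 it was -0.22 for SRGN and 0.076 for GPSM1. None of the 5 passed the test, where 3.10% of all genes did, and 3 of the 5 had an unadjusted p under 0.05, as had 25.5% of all genes. Another limma fit took all 12 arrays, with the line as a block and separate shRNA effects for each lineage. There TMEM154 and TMEM98 each had an adjusted p of 0.00847 and TNFRSF4 of 0.0120, and 1753 of 12505 genes passed. The call for these 3 genes thus turns on the model. The spread in that fit takes in their BCP-ALL arrays at or near background, which vary little, and leaves out the gap between lineages. For TMEM154 its SE was 0.077, against 0.18 in the fit over 4 line values. Its low p-values for these 3 genes are therefore no basis for a call. With the line as a block SRGN had a limma adjusted p of 0.0507 and GPSM1 of 0.135.

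Between the lineages, the difference between the shRNAs could be compared for SRGN and GPSM1. For TMEM154, TMEM98 and TNFRSF4 the BCP-ALL side is a difference between signals at background on all arrays but 1. No test of a lineage difference is therefore given for them. T-ALL minus BCP-ALL, shCREB3 minus shCREB2 was 0.57 for SRGN (95% interval -0.23 to 1.37, limma adjusted p = 0.816) and -0.33 for GPSM1 (interval -0.92 to 0.26, adjusted p = 0.860). Neither passed, as 0% of all genes did, and 764 of all genes had an unadjusted p under 0.05, these 2 not among them. Nalm6 decided both values. Without Nalm6 the difference was 0.082 for SRGN and 0.012 for GPSM1, and without RS4;11 it was 1.06 for SRGN and -0.67 for GPSM1. Either way a single line is left in BCP-ALL, so these values are given without a test.

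Over the 12 values of a gene, each minus the mean of its line, TMEM154 and TNFRSF4 ran opposite to each other (Pearson r = -0.957), and TMEM154 and GPSM1 ran together (r = 0.747). TMEM98 was near 0 with TMEM154 (r = 0.174) and with TNFRSF4 (r = 0.054). The values of a line are centred on the same mean, and the members were chosen by a change that bears on the sign of r, so these are descriptions. For TMEM154, TMEM98 and TNFRSF4 the BCP-ALL values are at or near background. The genes most like TMEM154 by this measure were ANXA1 (r = 0.984), the cholesterol exporter ABCG1 (r = 0.974) and FYB, an adaptor of T cell receptor signaling (r = 0.973). FYB was detected on 6 arrays and on no BCP-ALL array. TMEM98 was followed by APBB3 (r = 0.969), NOS3, the endothelial nitric oxide synthase (r = 0.951), and RXRA, a retinoid receptor (r = 0.944), all weaker in change, with T-ALL means of -0.39, -0.28 and -0.33.

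SRGN was most like LOC440595 (r = 0.968), MTMR12 (r = 0.932) and SLTM (r = 0.930), and GPSM1 most like KIAA0174 (r = 0.935), LOC653105 (r = 0.933) and BZW1 (r = 0.928), whose T-ALL means lay between -0.23 and -0.11. TNFRSF4 was followed by MRPL12, a mitochondrial ribosomal protein (r = 0.979), the interferon-induced IFITM1 (r = 0.967) and FAM127B (r = 0.958). IFITM1 had a mean change of 0.33 in T-ALL lines and 0.013 in BCP-ALL lines.

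No gene of the lists around the members could pass the test of the lineage difference in change, as 0% of all 12505 genes did. The smallest limma adjusted p was 0.346. Of all genes 4.33% had an unadjusted p under 0.05 in this limma test, and the unadjusted counts below stand beside that share. Of 20 genes of OX40 signaling 19 were measured, none passed the limma test of the lineage difference in change, and 1, NFKB1, had an unadjusted p under 0.05. NFKB1, the NF-kB subunit p105, had a mean change of -0.38 in T-ALL lines and -0.070 in BCP-ALL lines, and BIRC2, an inhibitor of apoptosis bound to TRAF2, -0.42 and -0.20. TNFSF4, the ligand of OX40, had -0.20 and -0.35 and was detected on 8 arrays. The median of the list was -0.016, beside 0.0049 over all genes. Between the shRNAs PIK3R1, a regulatory subunit of PI3 kinase, was higher with shCREB3 by 0.68 (adjusted p = 0.0451), 1 of 19 beside 3.10% of all genes. That call was lost without Jurkat (adjusted p = 0.232) or Molt4 (0.244).

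Of 26 other TNF receptors 11 were measured, none passed, and 1 was higher and 2 lower in T-ALL at an unadjusted p under 0.05 (median -0.078). TNFRSF21, also called death receptor 6, was the higher one, with 0.27 in T-ALL lines and -0.18 in BCP-ALL lines, and was detected on all 12 arrays. TNFRSF13C, the BAFF receptor, was 1 of the 2 lower ones, with -0.019 and 0.25. TNFRSF1B, the second TNF receptor, was not among them, with -0.014 and 0.42, where Nalm6 alone gave 0.78. TNFRSF13C was detected on 4 of 12 arrays and TNFRSF1B on 6. Their mean levels in T-ALL lines, 6.81 and 6.86, lay below the dimmest detected probes.

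Of 27 genes around GPSM1, among them Gi subunits, their regulators and adenylyl cyclases, 15 were measured, none passed and none had an unadjusted p under 0.05 (median -0.11). GPSM3, which like GPSM1 binds Gi subunits, had -0.025 in T-ALL lines and 0.24 in BCP-ALL lines, RGS12 had -0.34 and -0.16, and ADCY3, an adenylyl cyclase, had -0.052 and -0.23.

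Of 25 genes that make the glycosaminoglycan chains of serglycin 19 were measured and none passed the test by lineage (median -0.074, with 1 higher and 1 lower at an unadjusted p under 0.05). CHST7, a sulfotransferase of chondroitin, was the lower one, with -0.44 in T-ALL lines and 0.33 in BCP-ALL lines, where Nalm6 gave 0.63 and RS4;11 0.022. CHSY1, a chondroitin synthase, had 0.11 and -0.18. SLC35B2, which carries sulfate donor into the Golgi, had -0.62 for shCREB3 minus shCREB2 (adjusted p = 0.0492), again 1 of 19 beside 3.10% of all genes. That call too was lost without Jurkat (0.232) or Molt4 (0.249). CHST15 was not above background in T-ALL lines, at 6.92 against 9.34 in BCP-ALL lines, at least 4.81-fold lower in T-ALL lines. It passed the filter through its 6 BCP-ALL arrays, so this direction was set by the filter. Of 26 granule proteins 12 were measured and none passed (median 0.016), and 2 were higher at an unadjusted p under 0.05. NKG7, a granule membrane protein, had 0.51 in T-ALL lines and 0.17 in BCP-ALL lines, the protease CTSW 0.22 and -0.055, GZMK 0.13 and 0.44, and TNF -0.055 and 0.31. CTSW and TNF were each detected on 5 of 12 arrays, and GZMK on 7. The mean level of CTSW in BCP-ALL lines, 6.87, and of TNF in T-ALL lines, 6.83, lay below the dimmest detected probes.

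Of 5 genes tied to TMEM98, 2 were measured and neither passed or had an unadjusted p under 0.05. FRAT1 had -0.055 in T-ALL lines and 0.14 in BCP-ALL lines, and FRAT2 0.35 and 0.14, both being GSK3-binding proteins of the Wnt pathway. Of 11 genes of the CREB family and its coactivators 8 were measured, with a median of -0.065 and no gene past the test or an unadjusted p under 0.05, and CREBBP, which is CBP, had 0.14 and 0.26. Of 22 textbook CREB targets 11 were measured and none passed (median -0.11), with 1 lower at an unadjusted p under 0.05. ID1, an inhibitor of helix-loop-helix factors, had -0.50 in T-ALL lines and -0.078 in BCP-ALL lines, JUNB -0.11 and 0.15, and DUSP1, a MAP kinase phosphatase, 0.28 and 0.24. In level DUSP1 was lower in T-ALL lines, at 8.33 against 10.71 in BCP-ALL lines (limma adjusted p = 0.0247), 1 of 11 beside 1.05% of all genes. That call was lost without Jurkat or Molt4, where a single T-ALL line is left.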

How the data were processed

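RNA of 4 cell lines with 3 vectors was measured on 12 BeadChip arrays, named HumanHT-12 v4 in the study's methods and another version in the labels. The authors deposited probe signals from GenomeStudio without normalization, a detection p-value per probe and array, and a table of 34694 gene means quantile-normalized by them and given as natural log values. Decimal marks were missing in 98.1% of signals as deposited. They were restored from the gene means, within 0.02 on the natural log scale, and 12 probes that stayed unsure were left out. This fit of the marks is no independent check.

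Quantile normalization and log2 transformation followed, without background subtraction. Probes needed detection (p-value under 0.01) on 4 or more of the 12 arrays, and the brightest probe of a symbol was used, which left 12505 genes. Fold changes of dim probes are compressed by the background. The 3 arrays of a line were paired as the same cell line: the shCREB minus shControl change, shCREB3 minus shCREB2 and the mean level were taken within each line, and these 4 values per gene went into limma 3.58.1 (lmFit, eBayes; R 4.3.3) with Benjamini-Hochberg adjustment over all genes. The number of arrays limits the precision, and p-values measure the spread between cell lines. The fits of the lineage difference in change and of shCREB3 minus shCREB2 were run on simulated data with known changes, and the other fits were not. Tables and figures used Python 3.11.15, numpy 2.4.6, pandas 2.3.3 and matplotlib 3.10.9.

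Members, gene lists and tests were chosen with earlier results of these data known. Named genes are the members, CREB1, the 2 genes ranked just after the members, the 3 genes most correlated with each member, and of each list up to 2 genes with the most positive and 2 with the most negative lineage difference and any past a test. Alternatives were background correction by normexp from detection p-values (offset 16), median scaling, the deposited gene means, the mean of detected probes, 3 other filters, other models, the methods' t-test, and leaving out each line or array. Promoter sequences are from the RefSeq table of GRCh38.p14.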

Additional observations from a re-analysis of the deposited data

Results flagged for a closer look

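In 35 groups of 4 values (the 4 lines, for each gene, vector and measure) 5 had 1 line far from the other lines, by Dixon's ratio at its 95% critical value. Chance flags about 1 in 20 such groups, and the groups of a gene share arrays. SRGN in RS4;11 stood at 10.56 with shCREB3, with the other lines from 7.70 to 7.88, and at 10.46 with shControl, with the others from 8.36 to 8.55. For shCREB3 minus shCREB2, Nalm6 stood at -1.25 in SRGN, with the others from -0.27 to -0.12, and at 0.75 in GPSM1, with the others from 0.04 to 0.12. TNFRSF4 in Jurkat stood at 8.32 with shControl, with the others from 7.03 to 7.18. Of those, Nalm6 and RS4;11 did not detect the gene, so their signals give only upper bounds.

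For TNFRSF4, shCREB3 minus shCREB2 was below 0 in both T-ALL lines and above 0 in both BCP-ALL lines. As measured, the difference between lineages was -1.23. Its BCP-ALL values, 0.058 in Nalm6 and 0.033 in RS4;11, rest on signals at background on all arrays but 1. The sign in BCP-ALL lines therefore cannot be read, and the difference is given without a test.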

How the results depend on the processing

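The difference between lineages in change kept its sign for all 5 genes in every alternative that measured them. TMEM154, TMEM98 and TNFRSF4 drop out when detection on all 12 arrays is asked for. With background correction it was -1.27 for TMEM154, -1.39 for TMEM98, -1.18 for SRGN, -1.03 for GPSM1 and 1.49 for TNFRSF4. With the deposited gene means it was -0.92 for TMEM154, -0.72 for TMEM98, -0.52 for GPSM1 and 0.58 for TNFRSF4. It was -0.91 for TMEM154 with the mean of detected probes and -0.72 for GPSM1 with median scaling. Leaving out 1 line or array gave -1.39 to -0.83 for TMEM154, -1.21 to -0.68 for TMEM98, -1.13 to -0.51 for SRGN, -0.96 to -0.58 for GPSM1 and 0.49 to 1.23 for TNFRSF4.

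Counts of called genes moved more. For the lineage difference in change the methods' t-test gave 568 genes at an unadjusted p under 0.05. Leaving out 1 line or array gave 0 to 406 genes, with 406 without RS4;11. For shCREB3 minus shCREB2, with 388 genes, the count was 0 with background correction or the deposited gene means, 151 without a filter, 1753 with the replicate block over all 12 arrays, 2 with no replicate block, and 2172 by the methods' paired t-test (0 after adjustment). It was 0 to 724 without 1 line or array. For the lineage difference in shCREB3 minus shCREB2 it was 12 with the replicate block and 0 to 1691 without 1 line or array. For the level, with 131 genes, it was 310 with background correction, 8 with detection on all 12 arrays, 57 without a filter, and 0 to 285 without 1 line or array. For the change averaged over 4 lines, with 138 genes, it was 0 with background correction, the deposited gene means, the mean of detected probes or no replicate block, 38 with the replicate block, 266 with detection on all 12 arrays, 78 without a filter, and 0 to 424 without 1 line or array. Median scaling moved the split of the calls between the shRNAs to 360 higher and 121 lower, against 225 and 163. For the averaged change that split was 69 higher and 84 lower, against 41 and 97. With background correction the lineage difference in level was 1.97 for TMEM154, 3.99 for TMEM98 and 2.65 for TNFRSF4, and 0.84 for TNFRSF4 with the deposited gene means. PIK3R1 lost its call with background correction, the deposited gene means or no replicate block. SLC35B2 lost it under these and with the mean of detected probes, detection on at least 1 array or no filter. DUSP1 lost it with detection on all 12 arrays or no filter. The replicate block called TMEM154, TMEM98 and TNFRSF4 for shCREB3 minus shCREB2, with a spread that takes in their BCP-ALL arrays at or near background. It changed no call of SRGN, GPSM1, PIK3R1 or SLC35B2 there. Where a line is left out, the lone line of its lineage is assumed to vary like the others. The causes were not tested. Signal over background limits what TMEM154, TMEM98 and TNFRSF4 can show in BCP-ALL lines.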
